A study of Mus musculus with 6 samples.

Results

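The miR-143 and miR-145 cluster was followed in cultures of mouse vascular smooth muscle cells (VSMCs), whose contraction narrows arteries, with and without TNF-α, an inflammatory cytokine. Its members are the array reporters named mmu-miR-143, mmu-miR-145 and mmu-miR-145*, which are 3 of the 1078 microRNA (miRNA) reporters on each array. They were taken by exact name and not by a threshold on their values, but with earlier results of these data known. The asterisk marks the less abundant arm of the miR-145 hairpin. C57BL/6 mice, 8 weeks old, gave the cells from their abdominal aorta, and harvest followed several passages. Cultures given TNF-α (n = 3) were set against untreated cultures (n = 3), all of the same strain, age and vessel, with 1 array per culture. No source used here gives the dose or the duration of TNF-α. Passaged cells are a limited model, because VSMCs in culture drift from the contractile state of the vessel wall, and whether cells of several mice were pooled is not stated in the sources used here.

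A miRNA is a short RNA that pairs with messenger RNAs through its seed, bases 2 to 8, and lowers the protein made from them. miR-143 and miR-145 are cut from neighbouring hairpins of 1 transcript, and serum response factor with its coactivator myocardin switches that transcript on in smooth muscle. Both miRNAs repress genes of the proliferating, synthetic state, and miR-145 represses Klf4 and Klf5, which oppose contractile genes. In mice that lack the cluster, arterial smooth muscle loses contractile features. In RefSeq (GRCm38.p6) the genes Mir143 and Mir145a both lie inside Carmn, a long noncoding RNA gene. The reporter name miR-145 predates the split of this name into miR-145a and miR-145b, and which of them the reporter reads is not stated in the sources used here.

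For comparison, lists of other miRNAs tied to the same change of state were used. Those named below, outside the cluster, are shown with their mature sequences from RefSeq (GRCm38.p6), because they stand for the contractile and the proliferative state. Capitals mark the seed. miR-10a (chr11:96317186-96317208, plus strand) and miR-133b (chr1:20682834-20682855, plus strand) belong to the contractile list. miR-130a (chr2:84741116-84741137, minus strand), miR-221 (chrX:19146307-19146329, minus strand) and miR-222 (chrX:19146901-19146923, minus strand) belong to the proliferative list, and the last pair share 1 seed.
miR-10a: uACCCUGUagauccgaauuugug
miR-133b: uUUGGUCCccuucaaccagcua
miR-130a: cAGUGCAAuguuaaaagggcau
miR-221: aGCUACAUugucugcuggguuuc
miR-222: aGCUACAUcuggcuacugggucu

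Each value deposited for an array is the median density of a reporter, a linear brightness with the background still in it. The background peak, which is the commonest density on an array, was 82.0 to 91.4 on TNF-α arrays and 68.4 to 76.8 on control arrays. A background limit was set at that peak plus 3 SD of the values below it, and 228 to 250 reporters exceeded the limit on TNF-α arrays and 284 to 324 on control arrays. Both measures separate the groups of arrays, so a difference between the sets of arrays and an effect of TNF-α cannot be told apart. Of 642 reporters that reached the minimum density for testing, 146 (22.7%) differed by limma at an adjusted p under 0.05, 83 higher and 63 lower. That balance moved with the scaling, to 163 higher and 41 lower when none was applied and 126 and 60 under median scaling. The minimum let in 117 reporters through the TNF-α arrays alone and 3 through the control arrays alone, so the shares called rest on an uneven filter. With no minimum, 84 were higher and 78 lower of 1078. The authors' processed table gave 39 higher and 81 lower, but it differs in background and added constant as well as in scaling, and 285 of its reporters were tested. The median change of all tested reporters was 0.01 on the log2 scale as reported, 0.14 with none, 0.09 with median scaling and -0.12 for the processed table. Both smooth muscle markers, miR-143 and miR-145, exceeded the limit on all 6 arrays, but they are the cluster's own members and give no separate evidence of cell type. Of the markers of other cells, only miR-126-3p of 2 endothelial markers and miR-206 of 6 striated muscle markers exceeded it on at least 3 arrays, and 0 of 5 blood cell, 0 of 6 epithelial and 0 of 2 neural markers did so, nor did the liver marker miR-122.

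The main products of both hairpins were bright in every culture, and neither passed the test of a change with TNF-α. The minor arm, miR-145*, lay close to background and passed as lower. The cluster thus gave 0 higher and 1 lower of 3 reporters, beside 12.9% higher and 9.81% lower among all tested. The lower reporter, miR-145*, reached the minimum density for testing on the control arrays only, so its groups were apart before the test. Among the 364 tested reporters near background, 5.22% were lower. Quantile-normalized log2 values are used for changes below unless another scale is named, and errors of changes are standard errors (SE) of the limma fit.

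miR-145 had densities of 5664, 6899.8 and 5954 in the TNF-α cultures, against 5369.7, 5632 and 4451 in the control cultures. Before normalization the groups did not overlap, although TNF-α replicate 1 and control replicate 2 lay next to each other. The share of all reporters with nonoverlapping raw densities was not counted, so this separation is not read as a result about miR-145. The mean was 6173 ± 646 with TNF-α and 5151 ± 620 in controls (SD, n = 3 each), a density ratio of 1.20. By brightness the reporter held places 26, 19 and 20 of 1078 on the TNF-α arrays and 26, 25 and 27 on the control arrays. Quantile normalization goes by such places, and after it the groups overlapped. The change was then 0.17 ± 0.09 on the log2 scale, a ratio of 1.13 with a 95% interval of 0.97 to 1.30, and did not pass (limma, adjusted p = 0.217). Cyclic loess was the only scaling under which miR-145 passed, as higher by 0.29 (limma, adjusted p = 0.0317). It was 0.26 without normalization (limma, adjusted p = 0.101) and 0.21 in the processed table (limma, adjusted p = 0.115), each read against the shift of all reporters given above. Without TNF-α replicate 2, the brightest array for miR-145, its change was 0.11, and without TNF-α replicate 1 it was 0.27, neither of them called.

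miR-143, the other abundant product of the cluster, gave overlapping groups. Its densities were 3135, 3481 and 3470.5 in the TNF-α cultures, against 3566, 3918 and 3247 in the control cultures. The lowest value was a TNF-α culture and the highest a control culture, with the other values interleaved. The mean was 3362 ± 197 with TNF-α and 3577 ± 336 in controls (SD, n = 3 each), a density ratio of 0.940. The normalized change was -0.05 ± 0.09, with a 95% interval of -0.25 to 0.15 (limma, adjusted p = 0.722). In linear terms the interval runs from 0.84 to 1.11. In the processed table the miR-143 values were 3051, 3278 and 3396 with TNF-α, against 3497, 3779 and 3458 in controls. The groups did not overlap there, but the change of -0.14 did not pass (limma, adjusted p = 0.237). How many of all reporters lay apart in the processed table was not counted. Its places by brightness were 42, 40 and 38 on TNF-α arrays and 41, 38 and 39 on control arrays. In bulk cultures such as these, fewer cells of a type and less RNA per cell cannot be told apart.

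The SD that the authors deposited with each density was smaller than the spread over cultures for both abundant arms. What that SD was taken over is not stated in the files. It was 2.67% to 3.61% of the density for miR-143 and 2.06% to 3.67% for miR-145. Between cultures the SD of miR-143 was 5.86% of the mean with TNF-α and 9.38% in controls. For miR-145 it was 10.5% with TNF-α and 12.0% in controls. Cultures of the same group thus differed by more than the SD given for a single array.

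**Figure D1:**
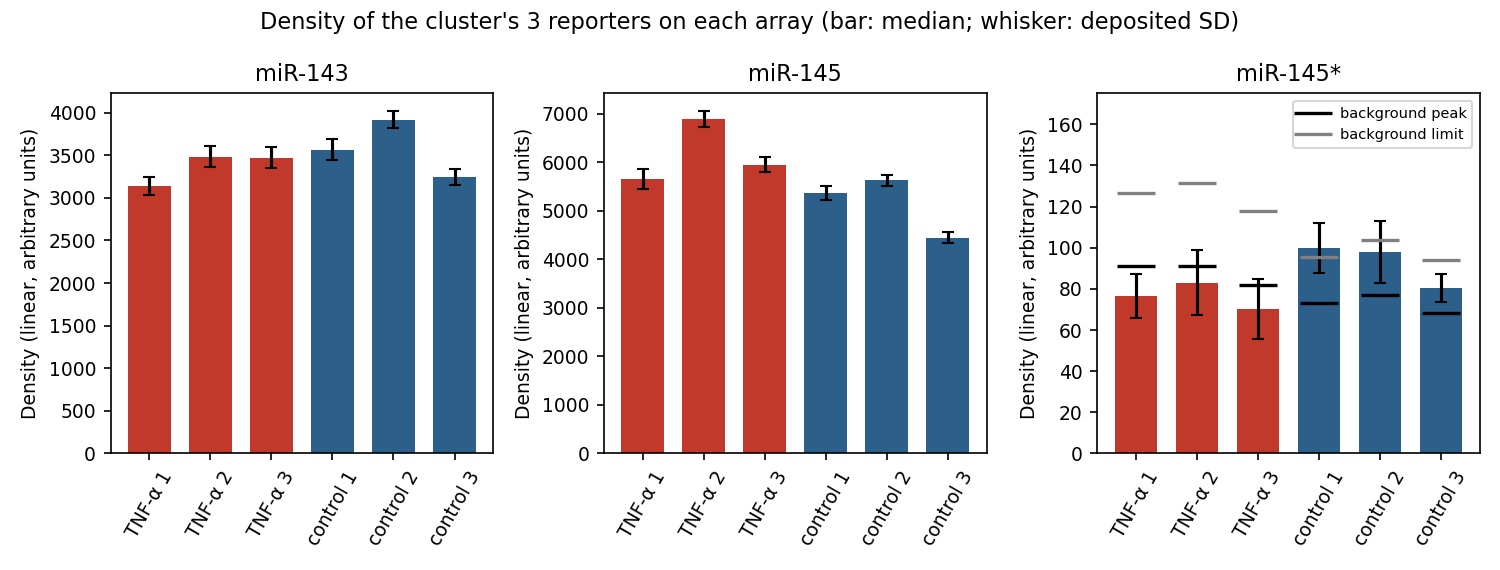
Density (linear, arbitrary units) of miR-143, miR-145 and miR-145* on the 3 TNF-α arrays (red) and the 3 control arrays (blue), with whiskers for the deposited SD of each reporter on its array. miR-145 is at 5664 or more on every TNF-α array and at 5632 or less on every control array, miR-143 overlaps between groups, and miR-145* lies below the background peak (black bar) on each TNF-α array and above it on each control array. The share of all reporters with nonoverlapping raw densities was not counted.

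miR-145*, the arm of the hairpin that is mostly discarded, had densities of 76.7, 83.1 and 70.3 in the TNF-α cultures, against 99.8, 97.9 and 80.4 in the control cultures. These raw densities overlapped, since TNF-α replicate 2 exceeded control replicate 3. Set against the background peak of its own array, the reporter was 14.3, 8.26 and 11.7 below the peak on the TNF-α arrays and 26.7, 21.1 and 12.0 above it on the control arrays. Of all 1078 reporters, 45 (4.17%) likewise lay above the peak on the 3 control arrays and below it on the 3 TNF-α arrays. The deposited SD of miR-145* was 6.80 to 15.9 on an array, which is of the same size as the distance between the group means, 76.7 ± 6.41 with TNF-α and 92.7 ± 10.7 in controls (SD, n = 3 each).

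After background correction and normalization, miR-145* passed as lower with TNF-α by limma (adjusted p = 0.00496), with nonoverlapping groups and an estimate of -0.51 ± 0.08 on the offset scale. Among all tested reporters, 40.0% had nonoverlapping groups, and among the 364 tested reporters near background 15.7% differed and 5.22% were lower. The background limit was exceeded on 0 of 3 TNF-α arrays and on 1 of 3 control arrays. With each TNF-α array set to the lowest value above its limit, the mean was 6.88 on the log2 scale, against a measured 6.60 in controls, so the detection bound does not exclude that there was no change and no fold is given. The reporter reached the minimum density for testing on the 3 control arrays and on no TNF-α array, as did 3 reporters in all, so its groups were already apart when it entered the test. With no such minimum it was still called lower (limma, adjusted p = 0.00708). Its change was -0.33 without normalization, and the size followed the constant added before the logarithm, with -1.09 for an offset of 8 and -0.26 for an offset larger than that used here. In the processed table it was listed at 0.01, the floor of the table, on every TNF-α array, and at 30.7, 27.1 and 18.2 on the control arrays. The higher background peak of the TNF-α arrays moves with this result and its part in it was not tested. miR-206, the striated muscle marker, was lower as well (-0.49 ± 0.07), while the summed density of its marker list was 588 to 680 with TNF-α and 616 to 668 in controls. Near background, like miR-145*, the liver marker miR-122 passed as lower (-0.26 ± 0.06, limma, adjusted p = 0.0225) although it exceeded the limit on 0 of 6 arrays. The neural marker miR-124, also above the limit on 0 of 6 arrays, had nonoverlapping lower values (-0.25 ± 0.08, limma, adjusted p = 0.066). The part of these markers in the result was not tested.

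miR-143*, the minor arm of the other hairpin, is not a member but was read on the same arrays. Its raw density was 80.7, 86.7 and 81.6 with TNF-α, against 80.1, 77.0 and 68.4 in controls. Relative to the background peak of its own array it was at -10.2, -4.66 and -0.42 with TNF-α, against 7.02, 0.13 and 0.08 in controls. It was thus among the 45 reporters that, like miR-145*, lay above the peak on control arrays and below it on TNF-α arrays. It exceeded the background limit on no array and was too dim to be tested. With no minimum density its change was -0.11 and did not pass (limma, adjusted p = 0.421).

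A difference between bright reporters on the same array does not depend on a factor that scales the whole array, which gives another view of the cluster. The level of such a difference depends on each reporter's own probe, so only its change between groups is read here. The log2 value of miR-143 minus that of miR-145, without normalization, was -0.86, -0.99 and -0.78 on the TNF-α arrays, against -0.59, -0.52 and -0.45 on the control arrays. Every TNF-α array lay below every control array, so miR-143 was lower relative to miR-145 on each of them. The density of miR-143 divided by that of miR-145 was 0.553, 0.504 and 0.583 with TNF-α and 0.664, 0.696 and 0.730 in controls.

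The mean difference was -0.87 ± 0.11 with TNF-α and -0.52 ± 0.07 in controls (SD, n = 3 each), a change of -0.35. An exact two-sided permutation test gave p = 0.1, the smallest that 3 arrays against 3 allow. With quantile normalization the values were -0.73, -0.93 and -0.72 with TNF-α against -0.67, -0.54 and -0.51 in controls. The groups still did not overlap, but the change was smaller, at -0.22 (exact permutation p = 0.1). Relative to miR-145 on the same array, 31.5% of the other tested reporters had nonoverlapping groups without normalization and 33.5% with quantile normalization. In a limma fit of all reporters relative to miR-145, a test chosen after seeing the data, miR-143 did not pass, with -0.35 ± 0.14 and a 95% interval of -0.64 to -0.06 without normalization (adjusted p = 0.0967) and -0.22 ± 0.13 with quantile normalization (adjusted p = 0.225). In those fits 14.0% and 17.8% of reporters passed. The lower value of miR-143 relative to miR-145 was thus seen on all 3 TNF-α arrays but did not pass a test.

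The arms of the miR-145 hairpin were compared in the same way, with 2 limits. miR-145* lay near background, and it reached the minimum for testing on the control arrays only, so its groups were apart before the test. The log2 value of miR-145* minus that of miR-145 was -6.34, -6.51 and -6.49 on the TNF-α arrays, against -5.66, -5.79 and -5.84 on the control arrays. The groups did not overlap, with means of -6.45 ± 0.10 with TNF-α and -5.76 ± 0.09 in controls (SD, n = 3 each). For this difference the exact permutation test gave p = 0.1, the smallest possible here, as it did without normalization. The estimated change was -0.68 ± 0.09, with a 95% interval of -0.87 to -0.49, in a limma fit over the 112 hairpins with both arms tested (adjusted p = 0.000103). In that fit 19.6% of hairpins differed, 7 with the starred arm higher and 15 (13.4%) with it lower relative to its partner. The groups did not overlap for 32.1% of them. Without normalization the change was -0.59 (limma, adjusted p = 0.00029). With no minimum density it was -0.68 (limma, adjusted p = 0.000278).

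In 36 hairpins the starred arm was near background while the partner exceeded the limit on all 6 arrays, as for miR-145. Of these, 9 (25.0%) differed, 8 of them with the starred arm lower, and their median change was -0.12. In the 14 hairpins with both arms clear of background, 4 had the starred arm higher and 1 lower, and the median change was -0.02. The abundant arm contributed 0.17 to the estimate for the miR-145 hairpin and the dim arm -0.51. The separation of the arms therefore carries all limits given for miR-145* above, and its size cannot be read from these arrays.

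**Figure D2:**
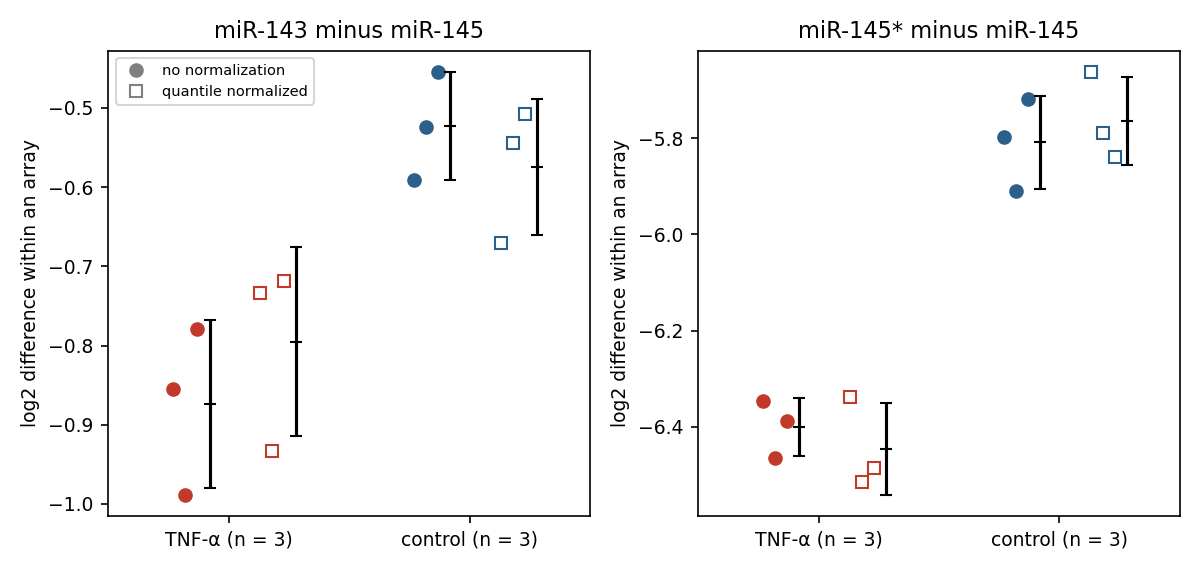
Log2 value of miR-143 minus miR-145 (left) and of miR-145* minus miR-145 (right) on each array, with TNF-α in red and control in blue. Filled circles are without normalization, open squares are quantile normalized, and the bars give mean ± SD of 3 arrays. In both panels every TNF-α array lies below every control array under either scaling.

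Other miRNAs of the contractile state showed no change that passed. The contractile list names 9 miRNAs, of which 8 were on the arrays and 6 were tested, 3 of them the cluster's own members. Across those 6, 0 rose and 1 fell, miR-145*, beside 12.9% higher and 9.81% lower over all tested reporters, and the median change was -0.04 beside 0.01 over all. The call of miR-145* carries the limits given above, as it entered the test through the control arrays only. miR-10a, which supports smooth muscle differentiation from stem cells, was at 183, 201 and 173 with TNF-α, against 165, 173 and 172 in controls. Its change was 0.05 ± 0.08 (limma, adjusted p = 0.704). miR-133a and miR-133b, close relatives best known from striated muscle, changed by -0.04 ± 0.08 and -0.06 ± 0.09 and exceeded the background limit on 0 and 1 of 6 arrays. Their sequences are nearly the same, so values of either reporter are uncertain. miR-1a and miR-143* were too dim to be tested.

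Among miRNAs of the proliferating state, 1 of 11 tested members rose and 0 fell, with a median change of 0.05, beside 22.7% called in either direction over all reporters. Of the 11, 9 exceeded the background limit on at least 3 arrays. The member that rose was miR-130a, which represses the growth-arrest gene Gax (Meox2) in vascular cells. Its densities were 1191, 1270.1 and 1066 with TNF-α, against 1176, 1259.7 and 991 in controls, which overlapped almost fully. It held place 70 on each TNF-α array and places 82, 76 and 80 on the control arrays, so that its normalized values were identical on the TNF-α arrays. The change of 0.28 ± 0.07 passed (limma, adjusted p = 0.0237). It was 0.04 with no normalization, -0.01 under median scaling, 0.18 with cyclic loess and 0.03 for the processed table, none of them called. The call was also lost with an offset of 8 (0.29), with the replicate block, and when any 1 array other than control replicate 2 was left out (0.26 to 0.29).

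miR-221 and miR-222, which are cut from 1 transcript and repress the cell cycle inhibitor p27, gave values of 0.05 ± 0.08 and -0.03 ± 0.12 and did not pass. miR-221 was at 6130, 5975 and 5718 with TNF-α, against 5457, 5466 and 4916 in controls. Its raw densities thus lay apart between groups, as those of miR-145 did, again with no share counted over all reporters, and overlapped after normalization. miR-222 was at 5986, 4286 and 5755 with TNF-α, against 5243, 5633 and 4771 in controls. One TNF-α culture was the lowest of the 6 and another the highest. miR-21, the brightest member of that list, changed by -0.18 ± 0.09 (limma, adjusted p = 0.171), miR-146a by 0.13 ± 0.09 and miR-26a by 0.18 ± 0.12. On control replicate 3 the deposited SD of miR-26a was 41.9% of its density. Without that array the change of miR-26a was 0.06, and without any other single array it was 0.15 to 0.29. miR-24 (0.03 ± 0.09) and miR-31 (0.06 ± 0.07) were not called. The starred arms miR-221* (0.16 ± 0.08), miR-21* (-0.05 ± 0.09) and miR-31* (-0.03 ± 0.09) did not pass either. miR-221* and miR-21* exceeded the background limit on 0 of 6 arrays and miR-31* on 5. Calls under other settings were miR-221* as higher with no normalization (0.33) and miR-21 as lower without control replicate 1 (-0.29). With no normalization the median change of all tested reporters was 0.14. miR-21 held place 2 on each TNF-α array and place 1 on control replicates 2 and 3, and its normalized values follow those places. Its raw densities overlapped, with a ratio of 1.05. Its processed values were higher with TNF-α without overlap, with means of 38861 and 35874 in controls, a separation not counted over all reporters. With no normalization miR-21 was at 0.08, miR-222 at 0.02, miR-21* at 0.14, miR-31* at 0.06, miR-133a at 0.14 and miR-133b at 0.12, miR-31 at -0.08 and miR-146a at -0.01, so the sign of these uncalled values rests on the scaling.

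**Figure D3:**
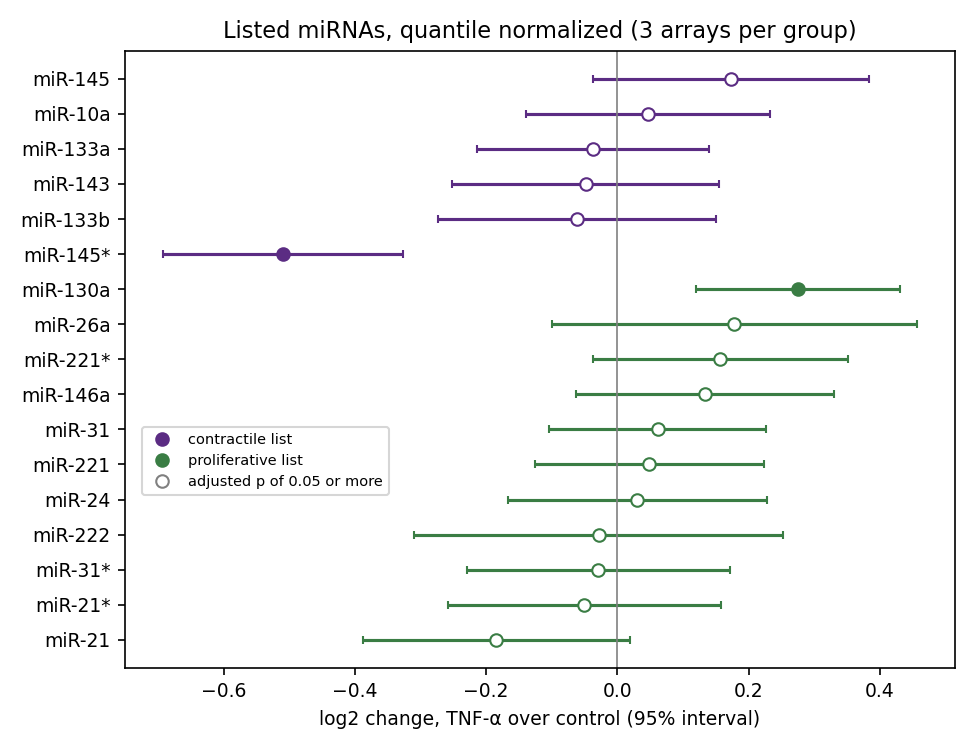
Log2 change, TNF-α over control, with its 95% interval, for the tested miRNAs of the contractile list (purple) and the proliferative list (green), quantile normalized, 3 arrays per group. Filled points passed an adjusted p of 0.05, which are miR-145* at -0.51 and miR-130a at 0.28, while miR-145 at 0.17 and miR-143 at -0.05 did not. miR-145* entered the test through the control arrays only.

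The profile of each abundant member over the 6 arrays was set against those of 201 other reporters clear of background on every array. Likeness was the root mean square difference of log2 values, each centred on its own mean. The closest to miR-143 were miR-3068 (0.0382), miR-17 (0.0397) and miR-22 (0.0427), beside a median of 0.175 over all. The closest to miR-145 were miR-10b (0.0646), miR-99a (0.0712) and miR-466f-5p (0.0748), beside a median of 0.179. miR-145 came at place 60 for miR-143, and miR-143 at place 46 for miR-145, with a difference of 0.140 between them. The cluster's abundant products were thus not each other's nearest profiles on these arrays.

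**Figure D4:**
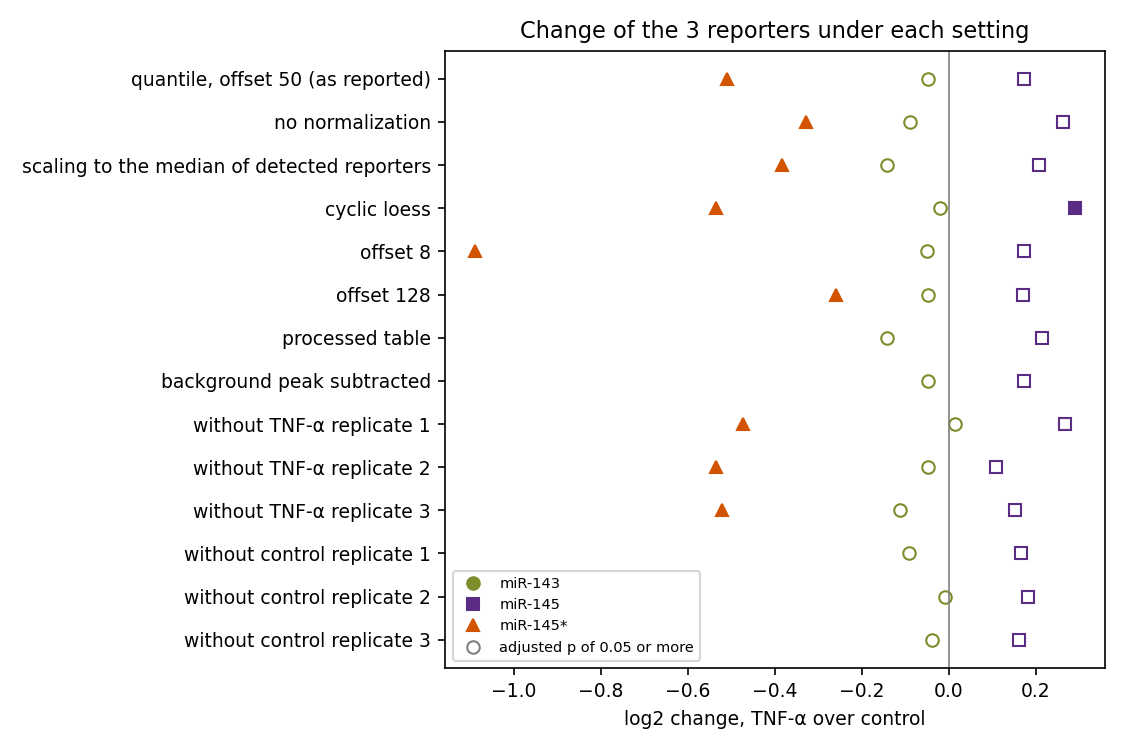
Log2 change, TNF-α over control, of miR-143 (circles), miR-145 (squares) and miR-145* (triangles) under each scaling, offset or left-out array, with filled symbols where the adjusted p was under 0.05. miR-145 stays between 0.11 and 0.29, miR-143 between -0.14 and 0.01, and miR-145* between -1.09 and -0.26 wherever it could be tested.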

How the data were processed

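Total RNA was tailed with poly(A), given an oligonucleotide tag and stained with Cy5, per the labels' protocols, so an array has 1 colour. The authors deposited, for each reporter, a median density and its standard deviation, both linear intensity values per the file headers. They also deposited a table of processed intensity values, whose scaling is not given in the sources used here. All columns were assigned to samples.

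Densities were corrected with normexp (offset 50), taken to log2 and quantile normalized (limma 3.58.1, R 4.3.3). A reporter entered the test when at least 3 arrays had a corrected density (offset not yet added) of 32 or more. Limma's moderated test was two-sided, and p-values were adjusted by Benjamini-Hochberg across every reporter tested. The offset understates changes of dim reporters. Starred and unstarred reporters of a hairpin were paired by exact name and their difference fitted likewise. Single differences had an exact permutation test.

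The members and the lists were chosen with earlier results of these data known. Named were the members, all listed miRNAs that were tested, and the 3 most similar reporters for each abundant member. The labels call the cultures independently grown, and number 2 TNF-α cultures as replicate 3, so replicates were numbered in the order of the titles. The procedure was tested on simulated data with large changes planted in bright reporters only, which says nothing about dim reporters or small changes. Alternatives were other scalings, offsets, filters, variance models, a replicate block, the processed table with 32 added, and each array left out.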

Additional observations from a re-analysis of the deposited data

How the results depend on the processing

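The number of reporters called was 77 with a filter at 100 and 70 to 91 with 1 array left out. miR-145 was called only with cyclic loess (0.29) among 19 alternatives, was positive in all of them and ran from 0.11 to 0.27 with 1 array left out. miR-143 was never called and ran from -0.11 to 0.01 with 1 array left out, positive (0.014) only without TNF-α replicate 1. miR-145* and the arm difference kept their call in the 11 alternatives where both could be tested. Except with no minimum density, miR-145* again entered those tests through the control arrays only, so its groups were already apart. The number of calls kept is thus no measure of support. miR-145* and the arm difference could not be tested with filters at 100, on all 6 arrays or at the background limit, with the peak subtracted, in the processed table, or without any 1 control array, because the filter then removed miR-145*. The contractile list had 2 calls with cyclic loess, 0 with each of the filters just named, the peak subtracted and the processed table, and 0 to 1 with 1 array left out. The proliferative list had 0 with median scaling, cyclic loess, an offset of 8, the processed table or the replicate block, and 0 to 1 with 1 array left out. miR-143 minus miR-145 was negative in all 21 alternatives, -0.36 to -0.16. In 19 of them the permutation test could not reach the threshold, and the 2 limma fits that could did not pass. The replicate block gave 103 calls in place of 146, with miR-145* at -0.51 (limma, adjusted p = 0.0235). Deviations of arrays with the same number correlated at 0.04, 0.02 and 0.15. The best match among control arrays had the same number for TNF-α replicates 1 and 3 but not 2. No clear pairing was seen, but 3 arrays per group cannot exclude one. The number of arrays, and for miR-145* the closeness to background, limit the precision.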
